A study of Rattus norvegicus with 9 samples.

Results

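The miR-125 family was followed through the hippocampus of rats given saline, the NMDA receptor blocker MK-801, or MK-801 and then clozapine. Its members are the rows of the deposited table named miR-125a or miR-125b with any ending, which came to 5 of 633 listed miRNAs: miR-125a-5p (listed as rno-miR-125a-5p), miR-125a-3p, miR-125b-5p (rno-miR-125b-5p), miR-125b-1-3p and miR-125b-2-3p. Small RNA was sequenced from dissected hippocampus of Sprague-Dawley rats, whose age the labels give as postnatal day 21 and, when dosing began, as 5 weeks. VEH rats received saline in both the 14-day and the 7-day course. MK-801 rats received 0.2 mg/kg MK-801 (dizocilpine) by intraperitoneal injection each day for 14 days and saline for 7 more. MK-801+CLO rats received the same 14 days of MK-801 and then 10 mg/kg of clozapine (CLO), an atypical antipsychotic, for 7 days. Each group held 10 rats and is represented by 3 libraries. The labels do not say whether a library is 1 rat or a pool. Every p-value below therefore speaks of the spread among libraries, which may be technical. The tissue was whole hippocampus, so the values describe total tissue and not a dendritic fraction, and in such bulk RNA fewer cells of a type and less RNA per cell cannot be told apart.

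MicroRNAs are short RNAs that lead an Argonaute protein to matching sites in messenger RNAs, chiefly through the seed, bases 2 to 8 from the 5′ end, and lower the output of those messengers. The miR-125 family descends from lin-4, the founding miRNA of worms, and its genes lie in clusters with members of the let-7 and miR-99/100 families. In hippocampal neurons miR-125b is known to associate with the fragile X protein FMRP, to act on dendritic spine shape and to target Grin2a, which encodes an NMDA receptor subunit. MiR-125a is known to hold back translation of Dlg4, the messenger of the postsynaptic scaffold PSD-95. Messenger RNA was not analysed here, so these targets have no values below.

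The mature sequences show why the rows fall into a shared-seed group and 3 separate 3p arms. They are RefSeq sequences (table build GRCr8), each the same as the deposited one apart from U for T, with the seed in capitals.
miR-125a-5p: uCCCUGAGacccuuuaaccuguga
miR-125b-5p: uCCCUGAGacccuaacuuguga
miR-351-5p: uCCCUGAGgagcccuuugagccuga
miR-125b-2-3p: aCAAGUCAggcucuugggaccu
miR-125b-1-3p: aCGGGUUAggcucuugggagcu
miR-125a-3p: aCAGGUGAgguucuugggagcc
The seed CCCUGAG was carried by 3 listed miRNAs, miR-125a-5p, miR-125b-5p and miR-351-5p, which is not a miR-125 row by name. MiR-125a-5p (24 bases) and miR-125b-5p (22 bases) share their first 13 bases and differ by 3 edits (substitutions, insertions or deletions) in all. No listed miRNA was closer to either of them. MiR-351-5p differs from miR-125a-5p by 6 edits and shares 8 bases at the 5′ end. Each 3p arm has a seed that no other listed miRNA has, and stands at least 4 edits from every other listed sequence.

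The precursor hairpins of Mir125a and Mir125b1 show how their rows relate to genes, with the mature 5p and 3p arms in capitals.
Mir125a: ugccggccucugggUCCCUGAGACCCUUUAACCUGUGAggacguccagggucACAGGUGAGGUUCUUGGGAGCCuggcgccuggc
Mir125b1: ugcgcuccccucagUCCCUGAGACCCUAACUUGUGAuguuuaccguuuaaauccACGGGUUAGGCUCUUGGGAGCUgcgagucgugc
Both arms of miR-125a come from the gene Mir125a. The 5p arm of miR-125b is known to be encoded identically by Mir125b1 and Mir125b2, so its counts sum both genes. By contrast, miR-125b-1-3p and miR-125b-2-3p each belong to 1 of them. The Mir125b2 hairpin was not among the RefSeq sequences used, so the arms of that gene were not checked against it. In the RefSeq gene order Mir125a follows Mir99b and Mirlet7e within Spaca6, Mir125b1 follows Mir100 and Mirlet7a-2, and Mir125b2 follows Mir99a and Mirlet7c1.

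Levels are CPM: counts divided by the miRNA total of the library and multiplied by 1000000. Libraries held 10665718 to 18284905 miRNA counts, and 469 miRNAs had enough counts for the test. The neuronal marker list (7 of 7 detected in every library) summed to 129459 to 135729 CPM in VEH, 128283 to 150217 in MK-801 and 122133 to 141441 in MK-801+CLO. Most of that sum was miR-9a-5p, at 73353 to 91869 CPM over the libraries. Within it miR-138-5p ran from 20010 to 37470 CPM and miR-128-3p from 14241 to 23553 CPM. The liver miRNA miR-122-5p stayed at or below 0.664 CPM. VEH replicate 3 stood apart in the summed level of the 7 choroid plexus and ependyma miRNAs, at 12394 CPM, where the lowest VEH library had 3984 CPM. Of the 7, 6 were highest there among VEH libraries, led by miR-204-5p (8583 CPM), and miR-211-5p was lowest there (10.4 CPM).

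Both guide strands (5p arms) were abundant, and the passenger strands (3p arms) ranged from well expressed to rare. CPM is not divided by length, since a small RNA read covers a whole mature miRNA. MiR-125a-5p ranked 14 of 633 with a mean of 16078 CPM over the 9 libraries, between miR-128-3p (17556 CPM) and miR-92b-3p (14311 CPM). MiR-125b-5p ranked 21 at 10192 CPM, between let-7i-5p (10471 CPM) and miR-29a-3p (9794 CPM). MiR-125b-2-3p ranked 45 at 2684 CPM, miR-125b-1-3p ranked 142 at 189.8 CPM and miR-125a-3p ranked 285 at 18.7 CPM. This order held in 9 of 9 libraries, and the ranges of neighbouring members did not overlap. All 5 rows together made up 2.71% to 3.11% of the counts of a library. They rest on 174847 to 307477 counts per library for miR-125a-5p, 103378 to 176218 for miR-125b-5p and 203 to 364 for miR-125a-3p.

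Across the 9 libraries the members varied little. The coefficient of variation (SD over mean, all groups pooled) was 5.81% for miR-125a-5p, 6.10% for miR-125b-5p, 6.33% for miR-125b-2-3p, 7.68% for miR-125b-1-3p and 8.26% for miR-125a-3p. Among the 333 miRNAs with a mean of at least 10 CPM the median was 12.4%, and these members ranked 17, 22, 25, 49 and 68 from the lowest. The seed-sharing miR-351-5p varied more, at 13.9% and rank 196. Among only the 70 most abundant miRNAs the median was 10.8%. There miR-125a-5p, miR-125b-5p, miR-125b-2-3p and miR-351-5p ranked 6, 8, 10 and 52 from the lowest. These are descriptions without a test.

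MiR-125a-5p, the most abundant member, stood at 17551, 16799.5 and 16816 CPM in VEH replicates 1 to 3. It stood at 15073, 14694 and 15241 CPM in MK-801 and at 15967, 16393 and 16165 CPM in MK-801+CLO. The 3 groups did not overlap on this scale: every VEH library lay above every MK-801+CLO library, and those above every MK-801 library. The mean was 17055 ± 429 CPM for VEH, 15002.5 ± 280.1 CPM for MK-801 and 16175 ± 214 CPM for MK-801+CLO (SD, n = 3 libraries). Of the 469 tested miRNAs, 1 (0.213%) had this order without overlap, and it was miR-125a-5p. This order, like MK-801 below both other groups, is one that miR-125a-5p itself shows, so each count had to include it. Other orders of the 3 groups were not counted. MK-801 lay wholly below both other groups in 2 of 469 (0.426%), and MK-801+CLO wholly below VEH in 54 of 469 (11.5%). After TMM scaling, which corrects library totals for their composition, MK-801 (13937 to 15710 CPM) still lay below VEH (16301 to 17371 CPM) and below MK-801+CLO (15819 to 16986 CPM). VEH and MK-801+CLO then overlapped. On that scale 7 of 469 miRNAs (1.49%) had MK-801 below both other groups, miR-125a-5p and miR-125b-1-3p among them, and 0 (0%) had the 3 groups in the order seen in CPM.

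MiR-125b-5p, the member known for Grin2a, stood at 10558, 11074 and 9554 CPM in VEH, at 10430.0, 9846 and 9259 CPM in MK-801, and at 10509, 9693 and 10804 CPM in MK-801+CLO. The groups overlapped in every comparison. The mean was 10395 ± 773 CPM for VEH, 9845 ± 585 CPM for MK-801 and 10335 ± 576 CPM for MK-801+CLO (SD, n = 3 libraries).

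MiR-125b-2-3p, the passenger strand of Mir125b2, stood at 2758, 3004 and 2733 CPM in VEH, at 2722, 2508 and 2402 CPM in MK-801, and at 2748, 2656 and 2619.98 CPM in MK-801+CLO. Every MK-801 library lay below every VEH library in CPM, by a gap of less than the SD of either group, and the groups overlapped after TMM scaling. MiR-125b-1-3p, the passenger strand of Mir125b1, stood at 190.5, 197.2 and 204.2 CPM in VEH, at 159.5, 196.9 and 171.4 CPM in MK-801, and at 196.0, 198.0 and 194.7 CPM in MK-801+CLO. MK-801 replicates 1 and 3 were low and replicate 2 was at the level of the other groups. MiR-125a-3p, the rare passenger strand of Mir125a, stood at 17.9, 19.8 and 19.9 CPM in VEH, at 18.6, 19.9 and 17.6 CPM in MK-801, and at 19.9, 19.0 and 15.3 CPM in MK-801+CLO. Its groups overlapped throughout, with MK-801+CLO replicate 3 the lowest library.

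**Figure D1:**
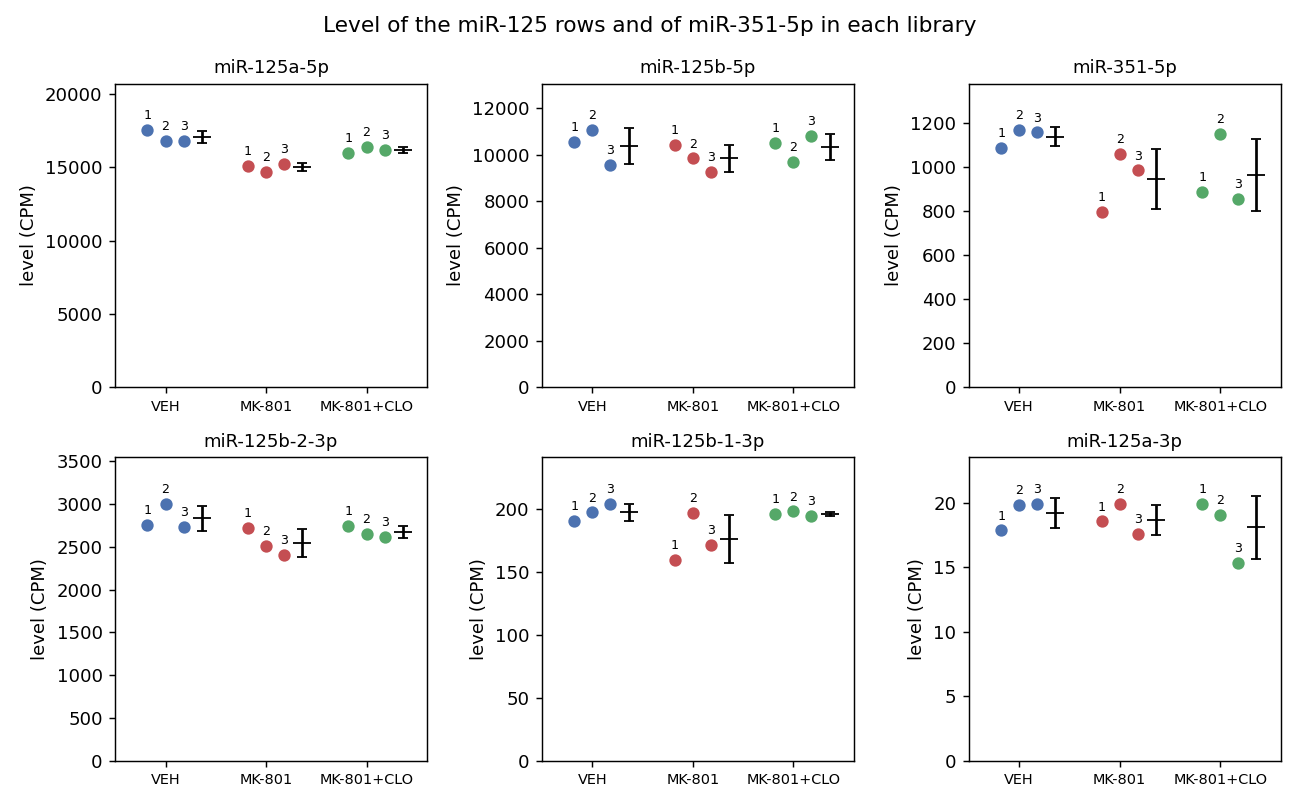
Level in CPM (linear axes from 0) of the 5 miR-125 rows and of miR-351-5p in each library, by group. Each coloured point is 1 library (replicate number beside it), with the mean ± SD (n = 3) in black. The MK-801 libraries of miR-125a-5p, at 14694 to 15241 CPM, sit below all others, while the groups of miR-125b-5p overlap.

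MK-801 was set against VEH to see how repeated blockade of NMDA receptors left the miRNA profile. All 5 members lay on the lower side in MK-801, by at most 0.16 on the log2 scale, and none passed the test. For miR-125a-5p the log2 fold change was -0.16 ± 0.08 (SE), with a 95% interval of -0.34 to 0.01 and an adjusted p of 0.814 in edgeR. MiR-125b-1-3p was at -0.15 ± 0.10 and miR-125b-2-3p at -0.13 ± 0.08, while miR-125b-5p (-0.06 ± 0.09, interval -0.25 to 0.14) and miR-125a-3p (-0.02 ± 0.12) were nearer to 0. Their adjusted p-values in edgeR ran from 0.814 to 0.956. Among the 469 tested miRNAs 0 passed (0%), with 24 at an unadjusted p under 0.05 (5.12%), none of them a member. DESeq2 called 1 and limma voom 0, and no member was called by either. A position below VEH was common, since 251 of 469 miRNAs (53.5%) lay there and 218 (46.5%) above, and the median of the members was -0.13 against -0.02 for all miRNAs. MK-801 libraries lay wholly below VEH in CPM for 37 of 469 miRNAs (7.89%), among them miR-125a-5p and miR-125b-2-3p, and after TMM scaling for 31 of 469 (6.61%), among them miR-125a-5p and miR-125b-1-3p.

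Without VEH replicate 3, the library with high choroid plexus miRNAs, miR-125a-5p was at -0.17, miR-125b-2-3p at -0.15, miR-125b-1-3p at -0.12, miR-125b-5p at -0.11 and miR-125a-3p at 0.01. Without MK-801 replicate 2, where miR-125a-5p was lowest, miR-125a-5p was at -0.11 and miR-125b-5p at -0.02. With upper-quartile scaling, which moved the median of all miRNAs from -0.02 to 0.07, miR-125a-5p was at -0.07 and 2 of the 5 members, miR-125b-5p and miR-125a-3p, lay on the higher side.

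Clozapine after MK-801 was compared with MK-801 alone to ask what the antipsychotic changed. Of the 5 members 4 lay higher with clozapine and none passed. MiR-125a-5p was at 0.15 ± 0.08 (interval -0.03 to 0.32, adjusted p = 0.640 in edgeR) and miR-125b-1-3p, at 0.20 ± 0.10, had the smallest adjusted p of the members (0.589 in edgeR). MiR-125b-2-3p (0.11 ± 0.08) and miR-125b-5p (0.11 ± 0.09) also lay above MK-801, and miR-125a-3p was at -0.01 ± 0.12. In this comparison 0 of 469 miRNAs passed (0%), 39 had an unadjusted p under 0.05 (8.32%), again with no member, DESeq2 called 2 and limma voom 0. The median of the members was 0.11 against -0.0044 for all miRNAs, of which 229 of 469 (48.8%) lay higher and 240 (51.2%) lower. With clozapine 22 of 469 miRNAs (4.69%) lay wholly above MK-801 in CPM, miR-125a-5p among them, and 33 of 469 (7.04%) after TMM scaling, with miR-125a-5p and miR-125b-1-3p.

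Some markers of other cells lay higher in the same comparison. The 3 vessel miRNAs summed to 20627 to 24648 CPM with clozapine and 17886 to 18792 CPM without. Most of that sum was miR-143-3p, also on the dendrite list below, at 19492 to 23136 CPM with clozapine and 16834 to 17638 CPM without. MiR-126a-3p lay wholly higher too (932 to 1060.4 CPM, against 809 to 854 CPM), whereas miR-145-5p overlapped (203 to 452 CPM, against 243 to 300.1 CPM). The 3 leukocyte and microglia miRNAs summed to 808 to 1032 CPM with clozapine and 710.0 to 746 CPM without, nearly all of it miR-150-5p. The other two overlapped, with miR-142-3p at 6.64 to 8.47 CPM with clozapine and 7.93 to 9.88 CPM without. Their part in the values of the members was not tested. With upper-quartile scaling, where the median of all miRNAs was -0.12, 2 of 5 members lay higher and miR-125a-5p was at 0.04.

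Both comparisons share the MK-801 libraries, so a low MK-801 value enters both with opposite signs. Lying lower in MK-801 against VEH and higher with clozapine was shared by 133 of 469 miRNAs (28.4%) and by 4 of the 5 members.

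The full course, MK-801+CLO against VEH, set the members closest together. Log2 fold changes ran from -0.03 ± 0.12 for miR-125a-3p to 0.05 ± 0.10 for miR-125b-1-3p, with miR-125a-5p at -0.01 ± 0.08 (interval -0.19 to 0.16) and miR-125b-5p at 0.05 ± 0.09 (interval -0.15 to 0.25). Of the members 2 lay higher and 3 lower, near the 50.1% and 49.9% of all 469, and the adjusted p-values in edgeR ran from 0.819 to 0.951. Here 0 of 469 miRNAs passed in edgeR (0%) and 70 had an unadjusted p under 0.05 (14.9%), no member among them. DESeq2 called 11 and limma voom 0. With library totals in place of TMM all 5 members lay below VEH, with miR-125a-5p at -0.08, as the median of all miRNAs went from 0.0034 to -0.06. Without VEH replicate 3, miR-125b-5p (-0.0041) and miR-125a-3p (0.0028) changed sign, while miR-125a-5p was at -0.03, miR-125b-2-3p at -0.05 and miR-125b-1-3p at 0.08. The summed choroid plexus and ependyma miRNAs were wholly lower in MK-801+CLO (2562 to 3855 CPM) than in VEH (3984 to 12394 CPM). Most of that sum was miR-204-5p, at 1900 to 2552 CPM in MK-801+CLO and 2613 to 8583 CPM in VEH. MiR-1298, miR-448-3p and miR-34b-5p were lower too, whereas miR-34c-5p and miR-449a-5p overlapped. MiR-211-5p went the other way, at 13.2 to 21.0 CPM in MK-801+CLO and 10.4 to 12.3 CPM in VEH. The summed vessel miRNAs were wholly higher in MK-801+CLO (20627 to 24648 CPM) than in VEH (17061 to 20393 CPM), though miR-145-5p overlapped. The part of these markers in the full-course values, those of listed miRNAs below included, was not tested.

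A joint edgeR test for any difference among the 3 groups gave adjusted p-values of 0.536 for miR-125a-5p, 0.538 for miR-125b-1-3p, 0.658 for miR-125b-2-3p, 0.757 for miR-125b-5p and 0.989 for miR-125a-3p. It called 0 of 469 miRNAs (0%), with 49 at an unadjusted p under 0.05 (10.4%), against 4 called by DESeq2 and 0 by limma voom.

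**Figure D2:**
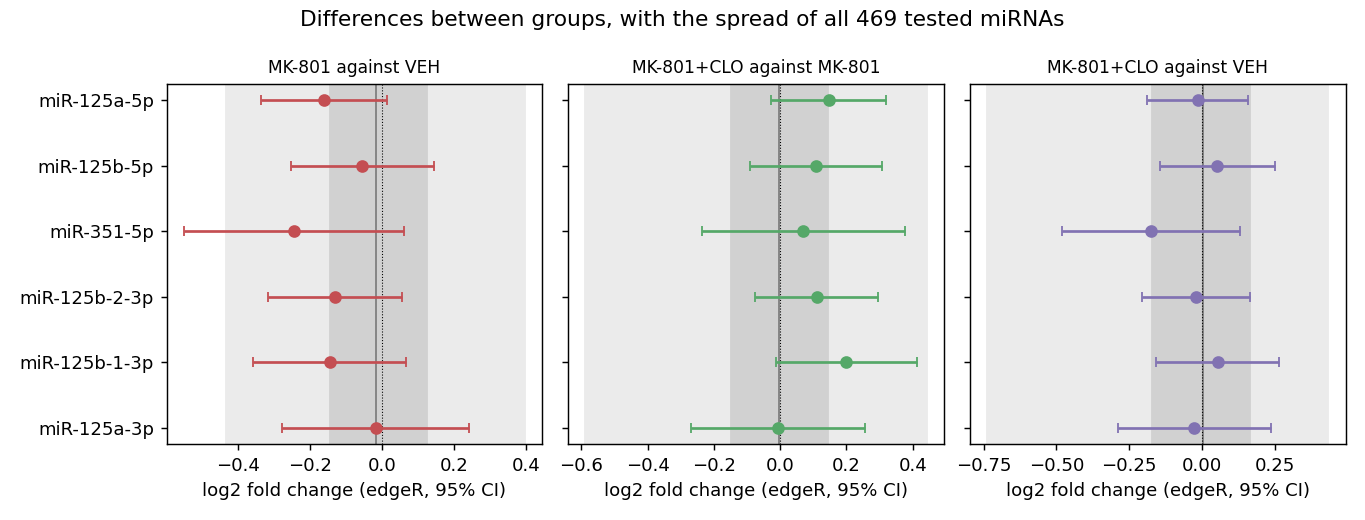
Log2 fold change (x axis) of the 5 miR-125 rows and miR-351-5p in the 3 comparisons, from edgeR, as points with 95% intervals. The dark grey band holds the middle 50% and the light band the middle 90% of all 469 tested miRNAs, with a grey line at their median. Each interval spans 0, and the miR-125a-5p point lies at -0.16, 0.15 and -0.01 from left to right.

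Ratios between members within a library do not depend on how libraries are scaled. MiR-125b-5p gave 0.602, 0.659 and 0.568 counts for each count of miR-125a-5p in VEH, 0.692, 0.670 and 0.608 in MK-801, and 0.658, 0.591 and 0.668 in MK-801+CLO. MiR-125a-5p was thus the larger of the pair in 9 of 9 libraries, and the groups overlapped. In MK-801 the log2 ratio was 0.11 above VEH (exact permutation test, two-sided, p = 0.2, n = 3 against 3, adjusted p = 0.8 over 12 tests). The smallest p this design allows is 0.1.

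The 5p arm dominated each pair of arms to a different degree. There were 738 to 1053 counts of miR-125a-5p for each count of miR-125a-3p, 46.8 to 65.4 of miR-125b-5p for each of miR-125b-1-3p and 3.50 to 4.12 of miR-125b-5p for each of miR-125b-2-3p. Since miR-125b-5p sums 2 genes, the last ratios are not those of single hairpins. The ratio of miR-125b-5p to miR-125b-2-3p was 3.83, 3.69 and 3.50 in VEH and 3.83, 3.92 and 3.85 in MK-801. These groups did not overlap, by a narrow margin between VEH replicate 1 and MK-801 replicate 1, and the log2 difference was 0.08 (exact permutation test, p = 0.1, n = 3 against 3, adjusted p = 0.8). In MK-801+CLO it was 3.82, 3.65 and 4.12, overlapping both. All 12 exact permutation tests of ratios had an adjusted p of 0.8 or more.

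The passenger strands also give a view of each miR-125b gene. MiR-125b-2-3p exceeded miR-125b-1-3p 14.5, 15.2 and 13.4-fold in VEH, 17.1, 12.7 and 14.0-fold in MK-801, and 14.0, 13.4 and 13.5-fold in MK-801+CLO. The spread was widest in MK-801, whose replicates 1 and 2 held the highest and lowest value of all 9 libraries. This ratio was chosen after the data were seen and has no test. Passenger strands can differ in stability, so it is not a ratio of transcription.

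**Figure D3:**
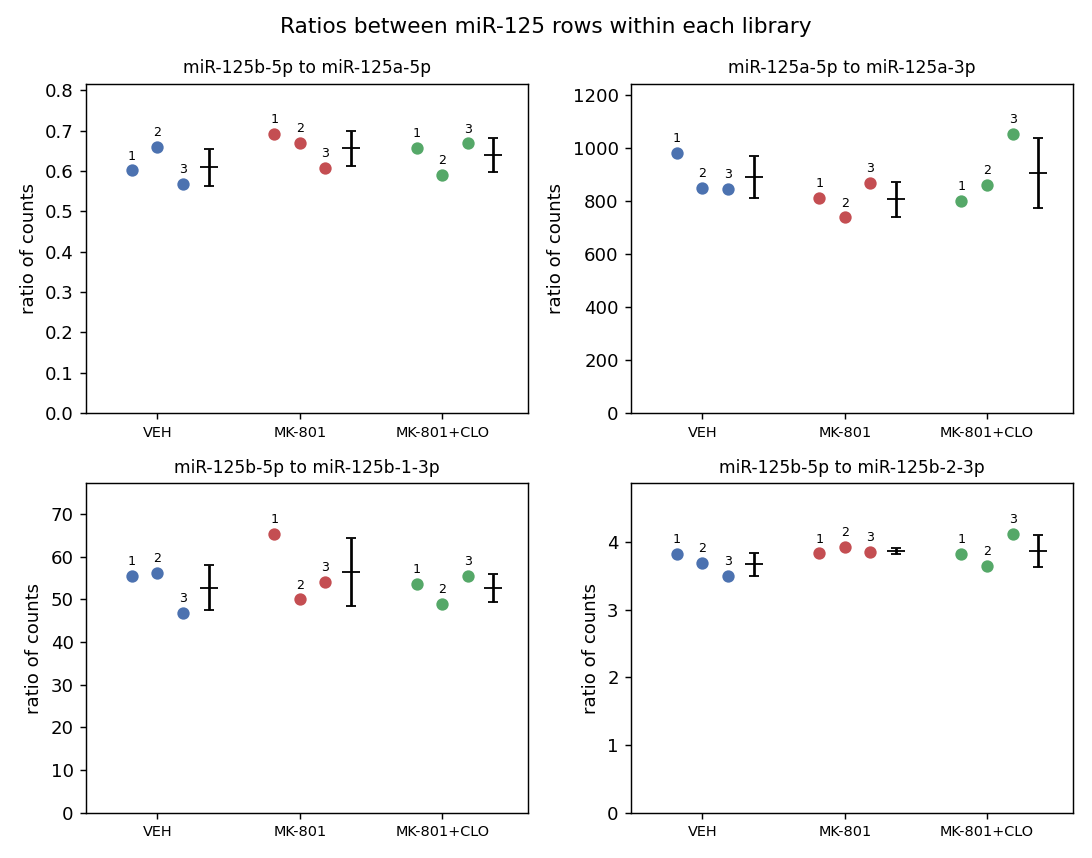
Ratio of counts (linear axes from 0) between miR-125 rows within each library, by group. Each coloured point is 1 library (replicate number beside it), with the mean ± SD (n = 3) in black. In the lower right panel the MK-801 points, at 3.83 to 3.92, form the tightest group, and the groups overlap in the other panels.

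The pool of guides with the seed CCCUGAG was mainly miR-125. MiR-125a-5p supplied 57.3% to 61.1% of the pool, miR-125b-5p 34.7% to 39.7% and miR-351-5p 3.03% to 4.23% across the 9 libraries. Together these guides took 2.92%, 2.90% and 2.75% of all counts in VEH, 2.63%, 2.56% and 2.55% in MK-801, and 2.74%, 2.72% and 2.78% in MK-801+CLO. The MK-801 libraries were the 3 lowest, and no test was made of the sum. MiR-351-5p itself, encoded on another cluster, stood at 1088, 1169 and 1158 CPM in VEH, at 796, 1059 and 984 CPM in MK-801, and at 888, 1152 and 854 CPM in MK-801+CLO. Its MK-801 libraries lay below VEH, at a log2 fold change of -0.25 ± 0.14 (adjusted p = 0.814 in edgeR). MK-801 lay wholly below VEH in 37 of 469 tested miRNAs (7.89%) in CPM and 31 of 469 (6.61%) after TMM scaling.

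The cluster partners, which share a genomic cluster with the members, lay on both sides. Of the 13 miRNAs on this list 11 were tested, as miR-100-3p had too few counts and let-7c-2-3p, which comes from a let-7c gene outside these clusters, appears only under a joint name. In MK-801 against VEH 7 of 11 (63.6%) lay higher and 4 lower, beside 46.5% of all 469 higher, and 0 passed. For Mir125a, miR-99b-5p was at 0.14 ± 0.14 and let-7e-5p at -0.13 ± 0.10, beside -0.16 ± 0.08 for miR-125a-5p. For the Mir125b1 cluster, miR-100-5p was at 0.17 ± 0.11 and let-7a-5p at -0.18 ± 0.11, and for the Mir125b2 cluster miR-99a-5p was at 0.16 ± 0.13 and let-7c-5p at -0.17 ± 0.13. The guides of the miR-99/100 family thus lay above VEH and those of let-7 below in all 3 clusters, also under the 3 other scalings, but none passed the test. Most of their 3p arms lay on the opposite side from the guide. Let-7e-3p was at 0.16 ± 0.10, let-7c-1-3p at 0.08 ± 0.16, let-7a-2-3p at 0.01 ± 0.19 and miR-99b-3p at -0.03 ± 0.14. Only miR-99a-3p, at 0.15 ± 0.12, lay on the side of its guide. Leaving out 1 library kept the signs of the guides and moved some of their values by over 1.5 times. MiR-99b-5p went from 0.07 (without MK-801 replicate 3) to 0.27 (without MK-801 replicate 2). MiR-99a-5p went from 0.07 (without MK-801 replicate 1) to 0.31 (without MK-801 replicate 2). MiR-100-5p was at 0.10 without MK-801 replicate 3, and let-7c-5p ran from -0.29 (without VEH replicate 2) to -0.11 (without MK-801 replicate 2). MiR-99a-5p and miR-100-5p differ by 1 base and let-7a-5p and let-7c-5p by 1, so reads of each pair could have been split between them, and let-7a-5p and let-7c-5p also come from genes outside these clusters.

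With clozapine against MK-801, 4 of 11 partners lay higher and 7 lower, and against VEH 6 and 5. In neither did any pass at the adjusted threshold. MiR-100-5p had the smallest p among the partners against VEH. It stood at 3020 to 3290 CPM in VEH, 3305 to 3783 CPM in MK-801 and 3733 to 4359 CPM in MK-801+CLO, and at 0.42 ± 0.11 for the full course (adjusted p = 0.174 in edgeR and 0.049 in DESeq2). MiR-125b-1-3p, encoded downstream in the same cluster, was at 0.05 ± 0.10 for the full course. The rare let-7a-2-3p of that cluster was at 4.59 to 5.09 CPM in MK-801+CLO, beside 3.01 to 3.99 CPM in VEH (0.48 ± 0.19, adjusted p = 0.260 in edgeR).

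**Figure D4:**
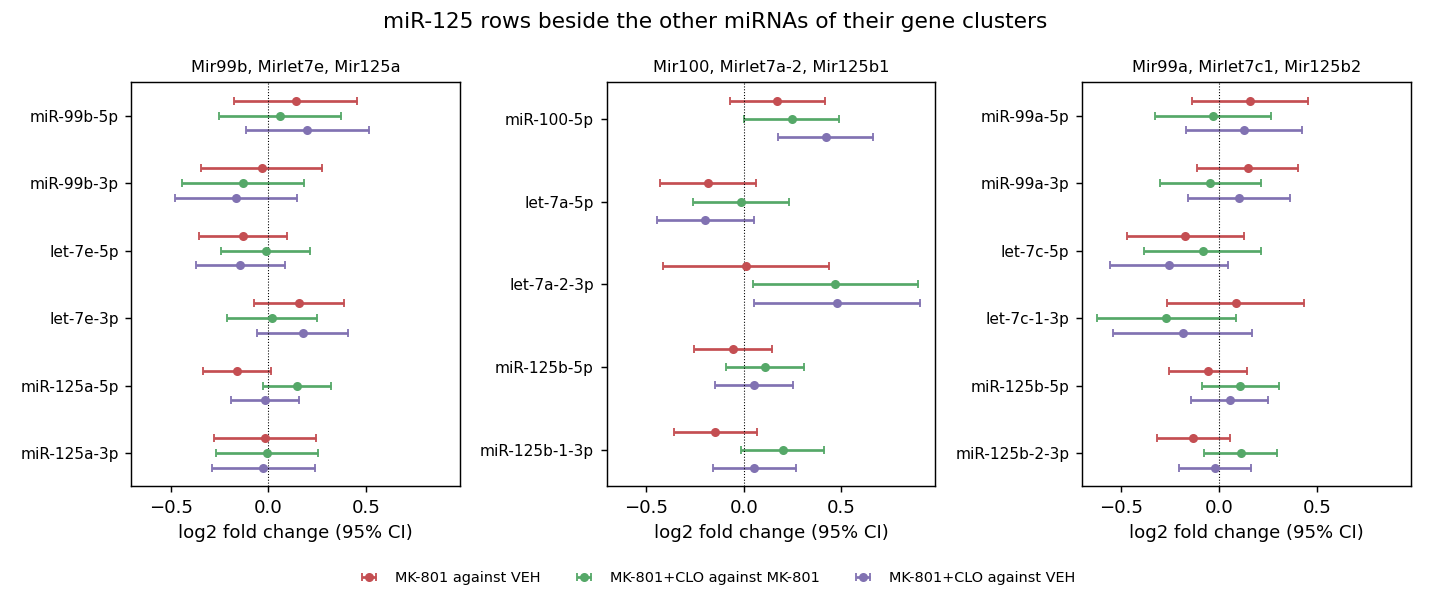
Log2 fold change (x axis, edgeR, points with 95% intervals) of the miR-125 rows and the other tested miRNAs of the 3 gene clusters, with 1 colour per comparison. MiR-125b-5p is drawn in both miR-125b clusters because both genes encode it. For MK-801+CLO against VEH the unadjusted intervals of miR-100-5p and let-7a-2-3p lie above 0, and those of the miR-125 rows span 0.

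Other dendrite and FMRP-linked miRNAs were spread over both sides. The list held 19 miRNAs besides miR-125, all tested, of which miR-100-5p and let-7c-5p are also cluster partners. In MK-801 against VEH 9 lay higher, 10 lower and 0 passed, with a median of -0.01. Its extreme member was miR-138-5p, which limits spine size, at 0.58 ± 0.18 (adjusted p = 0.588 in edgeR) on 21386 to 22640 CPM in VEH beside 23716 to 37470 CPM in MK-801. Without MK-801 replicate 2 it was at 0.79 (adjusted p = 0.0316 in edgeR), and without MK-801 replicate 1 at 0.45. With clozapine against MK-801, 11 of 19 (57.9%) lay higher, beside 48.8% of all 469. There miR-138-5p was at -0.47 ± 0.18, a sign opposite to that of miR-125a-5p. For the full course 12 of 19 (63.2%) lay higher, beside 50.1% of all 469, with a median of 0.14 against 0.0034 for all miRNAs. Of these, miR-132-3p, induced by neuronal activity, was at 0.42 ± 0.16 (adjusted p = 0.256 in edgeR, where miR-125b-5p was at 0.05 ± 0.09). It was at 0.59 without MK-801+CLO replicate 2 (adjusted p = 0.0466 in edgeR) and at 0.24 without MK-801+CLO replicate 3.

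Among 5 miRNAs linked to NMDA receptors or synapses, 4 of which are also on the dendrite list, 3 lay higher and 2 lower in MK-801 against VEH and 0 passed. MiR-219a-5p, known to fall with acute NMDA receptor blockade and abundant in oligodendrocytes, was at 0.42 ± 0.24. In MK-801 replicates 1 to 3 it stood at 27.4, 40.9 and 48.7 CPM. The oligodendrocyte markers miR-219a-2-3p (938, 1694 and 1577 CPM) and miR-338-3p (2846, 4450 and 4383 CPM) were also lowest in replicate 1. With miR-219a-5p they summed to 3686 to 4910 CPM in VEH and 3811 to 6184 CPM in MK-801. The part of oligodendrocytes in the miR-219a-5p value was not tested. MiR-223-3p, known to target Grin2b, was at 0.37 ± 0.33. MiR-134-5p, a dendritic regulator of spine size, was at -0.13 ± 0.15. These values depended on single libraries: miR-219a-5p was at 0.19 and miR-134-5p at -0.06 without MK-801 replicate 3, and miR-223-3p, at 1.02 to 2.05 CPM in these groups, was at 0.14 without VEH replicate 1. With upper-quartile scaling the same counts of 3 and 2 were found for this list, whereas 13 of 19 dendrite-linked miRNAs (68.4%) and 8 of 11 cluster partners (72.7%) lay higher, beside 303 of all 469 (64.6%).

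The miRNAs most like each guide over the 9 libraries were named by Pearson's r of log2(TMM-scaled CPM + 1) among 332 others with a mean of at least 10 CPM, as a description of libraries that share depth, scaling and group. For miR-125a-5p they were miR-23a-3p (r = 0.75), miR-3102 (r = 0.68), miR-26a-5p (r = 0.68), miR-181c-3p (r = 0.68) and miR-125b-2-3p (r = 0.67). Spearman's rho was 0.52, 0.72, 0.65, 0.68 and 0.38 in that order. Without the 2 libraries farthest from the median of miR-125a-5p, MK-801 replicates 1 and 2, these were 0.24, 0.54, 0.46, 0.19 and 0.40, a step that narrows the range and so tends to lower r. For miR-125b-5p they were miR-434-5p (r = 0.83), miR-194-5p (r = 0.82), miR-124-3p (r = 0.79), miR-139-5p (r = 0.78) and miR-192-5p (r = 0.77). Their rho was 0.75, 0.77, 0.67, 0.70 and 0.77. MiR-124-3p is a defining neuronal miRNA, and no other member of the neuronal marker list was among those named. Without MK-801 replicate 2 and VEH replicate 3 the values were 0.90, 0.63, 0.71, 0.80 and 0.54.

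Among the members, miR-125a-5p had r = 0.51 and rho = 0.68 with miR-125b-1-3p (rank 18 of 332). MiR-125b-5p was closest among them to miR-125b-2-3p (r = 0.73, rank 7 of 332), then miR-125a-5p (r = 0.46, rank 47) and miR-125b-1-3p (r = 0.06, rank 154). MiR-125a-3p, which rests on few counts, had r = -0.25 with miR-125a-5p of its own hairpin and r = -0.50 with miR-125b-5p.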

How the data were processed

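The authors deposited 1 table with whole-number counts for each mature miRNA and library, beside columns headed TPM. These deposited TPM values equal counts over the library's miRNA total times 1000000 (CPM), to within 0.000473%, and CPM was computed from the counts. Per the submitters' processing notes the tools were cutadapt 1.14, Bowtie and DESeq with build Rnor 6.0, with nothing on what each did. No source used here says how a read matching several miRNAs was counted. One name split over lines was rejoined.

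The main test was edgeR 4.0.16 (quasi-likelihood, TMM factors 0.958 to 1.05) in R 4.3.3 on the 469 of 633 miRNAs that filterByExpr kept. The model had 1 mean per group over all 9 libraries, and p-values were adjusted by Benjamini-Hochberg over all 469 at a threshold of 0.05. The SE comes from the fold change and its F statistic. The code was tested on simulated data. Ratios used log2 of counts + 0.5 and exact two-sided permutation tests (SciPy 1.17.1). No libraries agreed within sampling noise. Counting error was small for the abundant members: miR-125a-5p in VEH replicate 1 had a 95% Wilson interval of 17488 to 17614 CPM. It was not small for the rare miR-125a-3p, with an interval of 13.4 to 17.6 CPM around 15.3 CPM in MK-801+CLO replicate 3. These intervals cover counting error only.

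Alternatives were DESeq2 1.42.0, limma 3.58.1 (voom), RLE, upper-quartile and library-total scaling, no filter, a minimum mean of 10 CPM, robust dispersion, the 5 most abundant miRNAs left out, a replicate block, only the libraries compared, a ratio pseudocount of 5, and each library left out. Named miRNAs are the members, those with the same seed, lists of cluster partners, dendrite-linked and NMDA receptor-linked miRNAs, neighbours in level, and the 5 most alike of each guide. From the lists, examples were chosen after their values were seen. Members and lists were chosen with earlier results of these data known.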

Additional observations from a re-analysis of the deposited data

How the results depend on the processing

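No member passed an adjusted p of 0.05 under any alternative run, and the smallest was 0.421. All values here are log2 differences. Upper-quartile scaling turned miR-125a-3p (0.0741) and miR-125b-5p (0.0383) upward in MK-801 against VEH, and miR-125b-2-3p (-0.0019), miR-125b-5p (-0.0042) and miR-351-5p (-0.0284) downward in MK-801+CLO against MK-801. MiR-125a-3p also changed sign with a minimum of 10 CPM (0.0080, MK-801 against VEH) and, in MK-801+CLO against MK-801, under RLE (0.0088), DESeq2 (0.0070) and only the libraries compared (0.0024). For MK-801+CLO against VEH, signs turned for miR-125a-5p under RLE (0.0016) and DESeq2 (0.0016), for miR-125b-1-3p (-0.0080) and miR-125b-5p (-0.0083) with library totals, and for the ratio of miR-125b-5p to miR-125b-1-3p with a pseudocount of 5 (-0.0003). DESeq2 called 1, 2, 11 and 4 miRNAs in MK-801 against VEH, MK-801+CLO against MK-801, MK-801+CLO against VEH and the joint test, where edgeR called 0. The cause was not tested.

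Leaving out each library gave 0 to 1, 0 to 2 and 0 to 7 calls in the same order. The 1 came without MK-801 replicate 2, the 2 and the 7 came without MK-801+CLO replicate 2, and none was a member. In MK-801 against VEH miR-125a-5p ran from -0.1937 to -0.1107 and miR-125a-3p from -0.0827 to 0.0122. In MK-801+CLO against MK-801 miR-125a-5p ran from 0.0957 to 0.1833, miR-125a-3p from -0.0611 to 0.0835 and miR-351-5p from -0.0895 to 0.1484. In MK-801+CLO against VEH the ranges were -0.0539 to 0.0203 for miR-125a-5p, -0.0987 to 0.0457 for miR-125a-3p, -0.046 to 0.0215 for miR-125b-2-3p and -0.0171 to 0.0988 for miR-125b-5p. Ratio differences that crossed 0 were, for MK-801 against VEH, miR-125b-5p to miR-125b-1-3p (-0.0176 to 0.176). For MK-801+CLO against MK-801 they were miR-125b-5p to miR-125a-5p (-0.0932 to 0.017), to miR-125b-1-3p (-0.1758 to 0.0179) and to miR-125b-2-3p (-0.0509 to 0.0372). For MK-801+CLO against VEH they were miR-125a-5p to miR-125a-3p (-0.0998 to 0.0972) and miR-125b-5p to miR-125b-1-3p (-0.0843 to 0.0524).

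Same-numbered libraries of different groups had deviations correlated between -0.442 and 0.2508, and differently numbered ones between -0.3914 and 0.4341. Not every library correlated best with its own number. The numbers thus gave no sign of pairing, which correlations among so few libraries cannot exclude. With a replicate block miR-125a-5p was at -0.1624 in MK-801 against VEH, 0.148 in MK-801+CLO against MK-801 and -0.0145 in MK-801+CLO against VEH, and the block left 0 calls in each comparison.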
